A study of Mus musculus with 10 samples.

Results

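The genes described here are 9 subunits of Polycomb repressive complex 1 (PRC1), namely the polyhomeotic genes Phc1, Phc2 and Phc3, the chromobox genes Cbx2, Cbx7 and Cbx8, the Polycomb group RING finger genes Bmi1 and Pcgf5, and the RING ligase gene Ring1. They were taken by gene symbol from 19505 genes measured on the array, and each of the 9 had 1 probe set. RNA came from mouse intestinal organoids, which are epithelial structures grown in culture, and was measured on 5 arrays labelled KO and 5 labelled WT for IκBα, with 1 array a sample. IκBα, the product of Nfkbia, holds NF-kB factors in the cytoplasm. Both groups carry the mark P6 in their labels, which was not interpreted. The sources used here do not say how the deletion was made, which strain and age the mice were, or whether replicates came from separate animals or cultures, so each p-value rests on array-to-array spread that may be technical.

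PRC1 is a chromatin complex that represses genes. RING1 and RNF2 attach ubiquitin to histone H2A together with a PCGF partner, CBX proteins bind the histone mark written by Polycomb repressive complex 2 (PRC2), and PHC proteins join into chains through their SAM domain and bring PRC1-bound chromatin together. Complexes with CBX and PHC subunits are called canonical, and those with RYBP or YAF2 in place of a CBX protein are called variant. In the intestine PRC1 is known for keeping genes of other lineages silent in stem cells, Bmi1 has been used as a marker of reserve stem cells, and a chromatin-bound form of IκBα has been reported at Polycomb target genes. The KO and WT groups were compared to see how the PRC1 genes stood in organoids without IκBα.

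All 3 PHC genes, Bmi1 and Cbx7 were higher in KO, Pcgf5 was lower, and Cbx2, Cbx8 and Ring1 did not pass the test. The changes that passed ran from 1.34-fold lower for Pcgf5 to 2.15-fold higher for Phc1. Of the 9 genes 5 rose, where 15.0% of all 19572 tested probe sets were higher, and 1 fell, where 11.7% were lower; 26.7% of tested probe sets passed in either direction (limma, Benjamini-Hochberg adjusted p under 0.05). When tested against a 1.2-fold change, 3 members passed, Phc1, Phc2 and Cbx7, as did 15.5% of all probe sets. The median change of the 9 was 0.57 on the log2 scale, and that of all tested probe sets was -0.01. All levels given here are log2 values from the RMA method, and a change is the KO mean minus the WT mean on that scale, with its standard error (SE). On 5 of the 9 genes the KO and the WT arrays did not overlap, which held for 21.4% of tested probe sets.

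**Figure D1:**
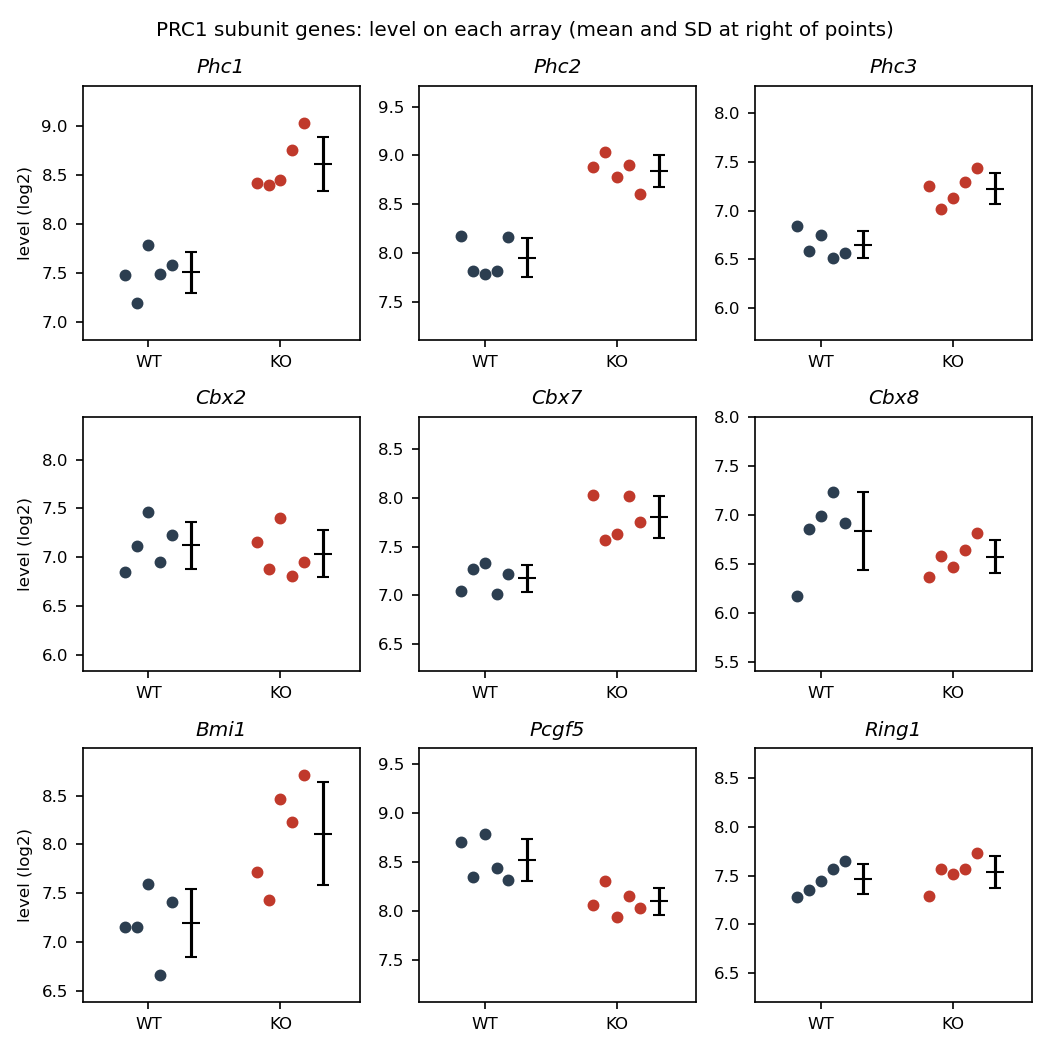
Level of each PRC1 subunit gene on the log2 scale (vertical axis, spanning the same number of units in each panel) on the 5 WT and the 5 KO arrays (points), with the group mean and SD as a bar. The KO points lie above all WT points for Phc1, Phc2, Phc3 and Cbx7 and below all WT points for Pcgf5, and the groups overlap for Bmi1, Cbx2, Cbx8 and Ring1.

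The targeted gene and some features of the arrays come first. Nfkbia stood at 4.72 to 5.34 on the KO arrays and at 8.95 to 9.85 on the WT arrays, a change of -4.13 (SE 0.20, limma, adjusted p = 2.81e-08). The 8 bacterial and phage spike-in control probe sets were all lower in KO, by 0.10 to 0.85, and their part in the changes of the PRC1 genes was not tested. Eif2s3y, on the Y chromosome, stood at 3.74 to 4.27 in KO and at 8.79 to 9.63 in WT. Uty and Kdm5d, also Y-linked, changed by -4.47 and -2.42. Y-linked signal, and any sex difference behind it, cannot be told apart from genotype. The part of such a difference in the changes of the PRC1 genes was not tested. Of 8 epithelial markers 3 rose and 2 fell; Cdh1 stood at 12.60 to 12.79 in KO and 12.05 to 12.47 in WT, the intestinal transcription factor gene Cdx2 fell by 2.16 (7.84 to 9.27 in KO, 10.28 to 11.40 in WT), Vil1 fell by 1.03, and the mean of the 8 per array was 10.49 to 11.11 and 10.87 to 11.16. Of 8 absorptive enterocyte markers 8 fell, with a mean level per array of 5.32 to 5.48 in KO and 9.92 to 11.99 in WT. Of 7 Paneth cell markers 6 fell and 1 rose, with means of 5.79 to 6.08 in KO and 11.26 to 11.72 in WT. The Paneth cell markers Defa17 and Defa3 had the same value on every array, so the count and the means hold that signal more than once. Of 6 goblet cell markers 4 fell, of 5 measured enteroendocrine markers 5 fell, and of 6 adult stem cell markers 4 fell. Over all tested probe sets 15.0% were higher and 11.7% lower. Of 6 blood cell markers 2 rose, Csf1r by 1.53 and Itgam by 1.56, and the mean of the 6 was 5.56 to 6.19 in KO and 5.15 to 5.35 in WT, while the pan-leukocyte gene Ptprc changed by -0.21 and did not pass. Of 8 measured fibroblast and smooth muscle markers 1 fell and 7 did not pass (means 5.03 to 5.26 in KO and 5.08 to 5.36 in WT), and of 5 endothelial markers none passed (limma; 1 at an unadjusted p under 0.05). In bulk organoids fewer cells of a type and less RNA per cell cannot be told apart, and the part of these cell type markers in the PRC1 changes was not tested.

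The stretches before the start sites of the 5 genes that rose, and of Ring1, are shown. These genes were picked with their changes known, and the windows of Pcgf5 and Cbx8 are not printed. The windows are the 250 bases upstream of the RefSeq transcript start (build GRCm38.p6), 5′ to 3′ on the gene's strand, and 8 of the 9 members matched by symbol, all but Cbx2. Capitals mark matches, on either strand, to the NF-kB consensus, to CACGTG (the E-box bound by factors such as MYC), to CCAAT and to GGGCGG (the GC box); neighbouring matches run together. For Phc2, with 3 annotated starts, the most downstream of the 3 windows is shown. It is the only Phc2 window with a match to the NF-kB consensus.
Phc1, chr6:122340228-122340477, minus strand: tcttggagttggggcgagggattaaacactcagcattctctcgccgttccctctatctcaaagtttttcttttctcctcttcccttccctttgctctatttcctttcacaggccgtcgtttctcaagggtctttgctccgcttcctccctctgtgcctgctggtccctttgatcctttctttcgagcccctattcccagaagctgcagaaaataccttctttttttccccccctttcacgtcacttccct
Phc2, chr4:128727321-128727570, plus strand: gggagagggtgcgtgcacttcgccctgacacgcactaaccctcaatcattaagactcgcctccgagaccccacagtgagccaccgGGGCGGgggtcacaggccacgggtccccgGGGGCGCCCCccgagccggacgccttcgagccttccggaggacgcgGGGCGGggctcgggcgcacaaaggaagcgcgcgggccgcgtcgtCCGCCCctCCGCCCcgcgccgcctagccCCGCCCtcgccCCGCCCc
Phc3, chr3:30969416-30969665, minus strand: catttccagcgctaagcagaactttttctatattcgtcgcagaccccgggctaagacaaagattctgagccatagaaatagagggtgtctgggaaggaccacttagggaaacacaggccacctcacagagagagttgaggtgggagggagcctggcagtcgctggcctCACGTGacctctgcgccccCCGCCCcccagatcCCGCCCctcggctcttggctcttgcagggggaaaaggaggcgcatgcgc
Cbx7, chr15:79932647-79932896, minus strand: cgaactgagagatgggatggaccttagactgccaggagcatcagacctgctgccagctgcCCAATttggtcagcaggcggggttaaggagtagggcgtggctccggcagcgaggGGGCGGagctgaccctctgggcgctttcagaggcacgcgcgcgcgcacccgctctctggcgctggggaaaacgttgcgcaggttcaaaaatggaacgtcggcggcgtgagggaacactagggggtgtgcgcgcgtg
Bmi1, chr2:18676768-18677017, plus strand: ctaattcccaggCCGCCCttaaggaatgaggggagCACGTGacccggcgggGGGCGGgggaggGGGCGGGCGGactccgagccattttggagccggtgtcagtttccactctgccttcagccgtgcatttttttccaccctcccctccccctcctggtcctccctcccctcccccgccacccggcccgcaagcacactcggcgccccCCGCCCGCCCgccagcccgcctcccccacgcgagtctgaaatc
Ring1, chr17:34024681-34024930, minus strand: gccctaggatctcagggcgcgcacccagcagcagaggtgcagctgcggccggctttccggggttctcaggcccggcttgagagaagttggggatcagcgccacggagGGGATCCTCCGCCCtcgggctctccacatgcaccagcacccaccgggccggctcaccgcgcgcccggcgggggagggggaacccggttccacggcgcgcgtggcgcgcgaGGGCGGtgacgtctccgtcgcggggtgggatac
The NF-kB consensus matched in 2 of the 12 windows of the 8 genes, those of Phc2 and Ring1 printed here, and in 7.25% of all 32851 RefSeq windows of this length. Phc2 rose and Ring1 did not pass, and the other genes that rose had no match within these letters. CACGTG stood in 4 of the 12 windows (6.02% of all windows). These were windows of Bmi1, Phc3, Cbx8 and Phc2, and those of Cbx8 and Phc2 are not printed. CCAAT stood in 5 of the 12 windows, from 4 genes (33.8% of all windows). GGGCGG stood in 9 of the 12 windows, from 7 of the 8 genes (32.7% of all windows). Phc1, the gene with the largest rise, had none of the 4 motifs. Of the 12 windows 10 held more CG pairs than the median window of all genes (6), from 8 in Phc1 to 34 in the Phc2 window shown. The shares of all windows were not matched for CG content, and CACGTG and GGGCGG each hold a CG pair. Phc2 and Pcgf5 gave 3 of the 12 windows each. A match is a run of letters and not a measured binding site.

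The PHC genes encode the polyhomeotic subunits of canonical PRC1, and all 3 rose. Phc1 stood at 8.42, 8.40, 8.45, 8.75 and 9.02 on KO arrays 1 to 5 and at 7.48, 7.19, 7.78, 7.49 and 7.57 on WT arrays 1 to 5. The lowest KO array lay above the highest WT array. The KO and WT means were 8.61 ± 0.27 and 7.50 ± 0.21 (SD, n = 5 each), and the change of 1.11 (SE 0.15, 95% confidence interval 0.77 to 1.44), or 2.15-fold, passed (limma, adjusted p = 0.000171). Only 10.7% of all tested probe sets changed by a larger size in either direction. Phc2 stood at 8.88, 9.03, 8.78, 8.90 and 8.60 in KO and at 8.18, 7.82, 7.79, 7.82 and 8.16 in WT. These groups did not overlap either, with means of 8.84 ± 0.16 and 7.95 ± 0.20 (SD, n = 5 each). Phc2 rose by 0.89 (SE 0.12, interval 0.62 to 1.16), or 1.85-fold (limma, adjusted p = 0.000195). Phc3 rose less, from 6.65 ± 0.14 in WT to 7.22 ± 0.16 in KO (SD, n = 5 each). Its KO arrays stood at 7.25, 7.02, 7.13, 7.29 and 7.43 and its WT arrays at 6.85, 6.58, 6.75, 6.51 and 6.57, without overlap. The change was 0.57 (SE 0.11, interval 0.33 to 0.81), or 1.48-fold (limma, adjusted p = 0.00222), and it missed the threshold when tested against a 1.2-fold change (treat in limma, adjusted p = 0.0550).

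The CBX genes encode the chromodomain subunits, of which a canonical complex holds a single kind at a time, and they did not move alike. Cbx7 stood at 8.03, 7.57, 7.63, 8.02 and 7.75 in KO and at 7.05, 7.27, 7.33, 7.02 and 7.22 in WT. No WT array reached the lowest KO array, and means were 7.80 ± 0.21 and 7.18 ± 0.14 (SD, n = 5 each). Cbx7 rose by 0.62 (SE 0.12, interval 0.35 to 0.89), or 1.54-fold (limma, adjusted p = 0.00255). Cbx2, which compacts nucleosomes, stood at 7.16, 6.88, 7.40, 6.81 and 6.95 in KO and at 6.85, 7.12, 7.46, 6.96 and 7.22 in WT. The groups covered nearly the same range, and the change of -0.08 (SE 0.15, interval -0.41 to 0.24) did not pass (limma, adjusted p = 0.744). Without WT replicate 3 the change of Cbx2 was 0.0025 (limma, adjusted p = 0.992), on the other side of 0. Cbx8, the neighbour of Cbx2 on chromosome 11, stood at 6.37, 6.59, 6.47, 6.64 and 6.81 in KO and at 6.17, 6.86, 6.99, 7.24 and 6.91 in WT. WT replicate 1 was the lowest of all 10 arrays, and the other 4 WT arrays lay above every KO array. The change of -0.26 (SE 0.18, interval -0.65 to 0.14) did not pass with all arrays (limma, adjusted p = 0.344), and without WT replicate 1 it was -0.42 and passed (limma, adjusted p = 0.0290).

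The PCGF genes encode the RING partners that set the kind of PRC1, and the members went opposite ways. Bmi1, a partner in canonical PRC1 known as a repressor of the Cdkn2a locus, stood at 7.72, 7.43, 8.46, 8.23 and 8.71 in KO and at 7.15, 7.15, 7.59, 6.67 and 7.41 in WT. Of the 5 KO arrays 4 lay above all WT arrays, while KO replicate 2 lay below WT replicate 3. The KO arrays of Bmi1 were the most spread of any member, with means of 8.11 ± 0.52 against 7.19 ± 0.35 in WT (SD, n = 5 each). Bmi1 rose by 0.92 (SE 0.25, interval 0.37 to 1.46), or 1.89-fold (limma, adjusted p = 0.0169), and missed the threshold when tested against a 1.2-fold change (treat in limma, adjusted p = 0.0702). Pcgf5, the partner in a variant complex, was the member that fell. It stood at 8.07, 8.31, 7.94, 8.15 and 8.03 in KO and at 8.71, 8.35, 8.79, 8.44 and 8.32 in WT. The highest KO array (8.31) and the lowest WT array (8.32) nearly met. Means were 8.10 ± 0.14 and 8.52 ± 0.22 (SD, n = 5 each), and the change of -0.42 (SE 0.12, interval -0.69 to -0.15), or 1.34-fold lower, passed (limma, adjusted p = 0.0250). This call was lost when KO replicate 1, 3 or 5, or WT replicate 1 or 3, was left out, where the adjusted p was 0.0514 to 0.0583, and when tested against a 1.2-fold change (treat in limma, adjusted p = 0.437).

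Ring1 encodes RING1A, a ubiquitin ligase of PRC1, and its level differed by less than the spread between arrays. It stood at 7.29, 7.57, 7.52, 7.57 and 7.73 in KO and at 7.28, 7.36, 7.45, 7.57 and 7.65 in WT. The groups overlapped along nearly their whole length, and the change was 0.07 (SE 0.11, interval -0.17 to 0.32; limma, adjusted p = 0.692). Rnf2, which encodes the other ligase, RING1B, stood at 8.91, 8.37, 8.70, 8.74 and 8.82 in KO and at 8.38, 8.41, 8.72, 8.37 and 8.37 in WT. Its change of 0.25 (SE 0.12, interval -0.01 to 0.52) did not pass (limma, adjusted p = 0.160), but passed at 0.34 without KO replicate 2 (limma, adjusted p = 0.0428).

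**Figure D2:**
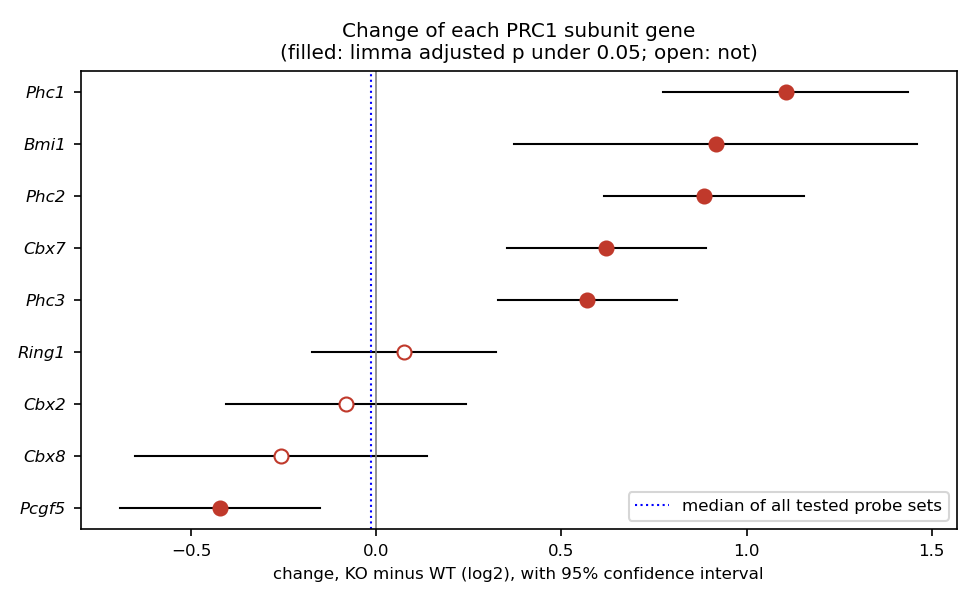
Change of each PRC1 subunit gene, KO minus WT on the log2 scale (horizontal axis), with its 95% confidence interval from limma; filled points passed and open points did not, and the dotted line is the median of all tested probe sets (-0.01). The 5 genes that rose have intervals above 0.3, that of Pcgf5 lies below 0, and those of Ring1, Cbx2 and Cbx8 cross 0.

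**Figure D3:**
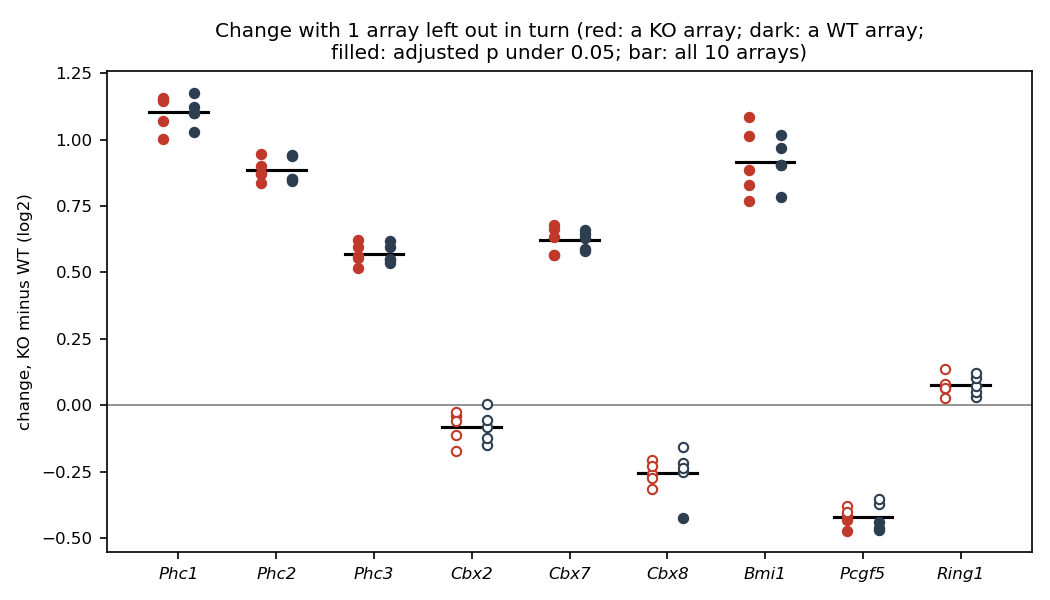
Change of each gene, KO minus WT on the log2 scale (vertical axis), with 1 array left out in turn: red points leave out a KO array, dark points a WT array, filled points passed, and the bar is the value of all 10 arrays. Phc1, Phc2, Phc3, Cbx7 and Bmi1 passed in all 10 cases, Pcgf5 in 5 of 10, and Cbx8 in 1, without WT replicate 1.

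Whether related subunits changed by different amounts was tested on the difference between their levels within each array. Of 8 pairs 4 differed, with the groups apart, and each of these reached p = 0.00794, the smallest that 5 against 5 arrays can give (exact two-sided permutation test; 0.0159 after adjustment over the 8 pairs). Cbx7 rose against Cbx8 by 0.88 and against Cbx2 by 0.70 on the log2 scale, and both pairs hold the same rise of Cbx7. Bmi1 rose against Pcgf5 by 1.34. Both genes had already passed in opposite directions on the same arrays, so this result is not separate from those calls. The difference itself depends on the probes, and its shift between the groups is what was tested. On KO arrays 1 to 5 the Bmi1 level minus the Pcgf5 level was -0.34, -0.87, 0.52, 0.08 and 0.67, and on WT arrays 1 to 5 it was -1.56, -1.19, -1.20, -1.77 and -0.91. The highest WT value lay just below the lowest KO value. Phc1 rose against Phc3 by 0.54 in array signal. All Phc3 arrays lay within the range of the background control probe sets, so unequal rises and unequal probe response cannot be told apart. For Phc1 against Phc2 the difference of 0.22 did not pass (exact permutation test, p = 0.381, adjusted 0.435), nor did that of 0.32 for Phc2 against Phc3 (exact permutation test, p = 0.111, adjusted 0.178), which passed without KO replicate 5 (0.43, adjusted p = 0.0254). Cbx2 against Cbx8 (0.18, exact permutation test, adjusted p = 0.508) and Ring1 against Rnf2 (-0.18, exact permutation test, adjusted p = 0.434) did not pass. With KO replicate 2 and WT replicate 4 both left out, no pair passed: 4 arrays against 4 cannot give an exact p under 0.0286, which became 0.0571 after adjustment for these 4 pairs.

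**Figure D4:**
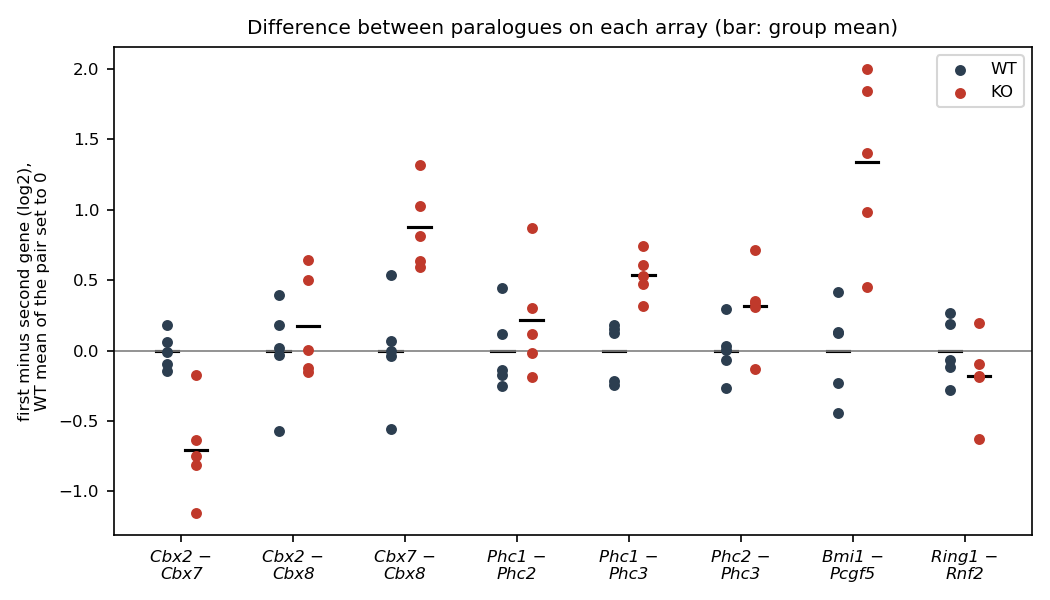
Level of the first gene minus that of the second on each array, on the log2 scale with the WT mean of each pair set to 0 (vertical axis), for 8 pairs of related subunits; dark points are WT arrays, red points are KO arrays and bars are group means. The KO points lie apart from the WT points for Cbx2 against Cbx7, Cbx7 against Cbx8, Phc1 against Phc3 and Bmi1 against Pcgf5, and overlap them in the other 4 pairs.

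Other PRC1 genes, mostly of variant complexes, came from a list of 26, of which 21 were measured. Of these 6 rose, 1 fell and 14 did not pass, where 15.0% of all tested probe sets were higher and 11.7% lower. The median change was 0.18. Bcor, an X-linked gene, encodes a subunit of the variant complex with Pcgf1 and rose by 0.83 (SE 0.14, limma, adjusted p = 0.000689). The part of a sex difference between the groups in this change was not tested. Bcor stood at 7.20 to 7.81 on the WT arrays and at 8.17 to 8.66 on the KO arrays, without overlap. Pcgf1 rose with it by 0.54 (limma, adjusted p = 0.0147), while other genes of that complex on the list did not pass, the CpG-island binding Kdm2b (0.23) and the Bcor relative Bcorl1 (-0.11). Pcgf3, the closest relative of Pcgf5, rose by 0.34 (limma, adjusted p = 0.0196; 0.0544 without WT replicate 2), and so did Fbrsl1 (0.54, limma, adjusted p = 0.0127). Yaf2, which takes the place of a CBX protein, rose by 0.40 (limma, adjusted p = 0.0197; 0.0525 without KO replicate 5 and 0.0545 without WT replicate 2), and its relative Rybp changed by -0.13. Of the 6 measured PCGF genes, members included, 3 rose and 1, Pcgf5, fell; Pcgf2 (0.25) and Pcgf6 (0.05) did not pass. L3mbtl2, of the variant complex with Pcgf6, fell by 0.69 (limma, adjusted p = 0.0225). Of the genes in this list, 1, Bcor, passed when tested against a 1.2-fold change. Usp7 (-0.40), a ubiquitin protease also found in the complex with Pcgf1, narrowly missed (limma, adjusted p = 0.0557). Without WT replicate 2 the count of genes that rose was 3. L3mbtl2 lost its call with KO replicate 2 or 5, or WT replicate 3 or 5, left out (adjusted p 0.0502 to 0.0581), and none fell then; 2 fell with KO replicate 3 left out and 3 with WT replicate 4 left out.

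PRC2 writes the mark that CBX proteins bind, and of its 12 measured genes 1 rose, 2 fell and 9 did not pass, where 15.0% of all tested probe sets were higher and 11.7% lower. The median change was -0.11. Jarid2, which brings PRC2 to chromatin, stood at 8.11, 8.15, 8.14, 8.48 and 8.37 in KO and at 9.07, 8.84, 9.16, 8.90 and 8.65 in WT. The groups did not overlap, and Jarid2 fell by 0.67 (SE 0.12; limma, adjusted p = 0.00158). The core subunit Suz12 fell by 0.55 (limma, adjusted p = 0.0180) and the accessory subunit Phf1 rose by 0.56 (limma, adjusted p = 0.0262), while the methyltransferase genes Ezh2 (-0.30) and Ezh1 (0.30) and the core subunit Eed (-0.18) did not pass. Phf1 lost its call with KO replicate 1, 4 or 5, or WT replicate 1, 2 or 3, left out (adjusted p 0.0532 to 0.0681), so that none rose then, and 2 rose without KO replicate 3 or WT replicate 4. Of 10 measured genes of the enzymes that remove ubiquitin from H2A and their partners, 1 fell and none rose (limma; 2 rose at an unadjusted p under 0.05). That gene, Asxl3, changed by -0.41 (limma, adjusted p = 0.0453) and lost its call with KO replicate 1, 3, 4 or 5, or WT replicate 1, 2 or 4, left out (adjusted p 0.0658 to 0.109). Without KO replicate 1 or 2, 1 gene of this list rose.

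Hox genes and the Cdkn2a locus are textbook targets of PRC1. Of 33 measured Hox genes 5 fell, 28 missed the threshold and none rose (limma), where 11.7% of all tested probe sets were lower and 15.0% higher. At an unadjusted p under 0.05, 8 were lower and 0 higher (limma). The median change was -0.14. The 23 background probe sets were also lower in KO, with changes of -0.32 to -0.07. The part of this shift in the Hox values was not tested. The fall lay in the anterior HoxA genes, Hoxa3 by 1.35, Hoxa5 by 1.11 and Hoxa2 by 1.05 (limma, adjusted p at most 0.000146), and less in Hoxa4 (-0.41, limma, adjusted p = 0.0495) and Hoxb8 (-0.41, limma, adjusted p = 0.0329). Hoxa3 stood at 4.51, 4.43, 4.53, 4.31 and 4.57 in KO and at 5.79, 5.82, 6.01, 5.68 and 5.77 in WT, without overlap. Hoxa4 and Hoxb8 lost their calls when KO replicate 1, 3, 4 or 5 or WT replicate 1, 2, 4 or 5 was left out, and in all of these but KO replicate 4 the Hox genes that fell numbered 3. Cdkn2a, which encodes the cell cycle inhibitor p16 and ARF, moved most of all genes on the PRC1, PRC2, deubiquitinase, Hox, kinase inhibitor and proliferation lists. It stood at 8.05, 8.76, 7.98, 8.66 and 9.14 on the KO arrays and at 4.16, 4.87, 4.64, 4.28 and 4.40 on the WT arrays. Every KO array was higher than every WT array by over 3 on the log2 scale, and the change of 4.05 (SE 0.23) passed (limma, adjusted p = 1.07e-07). Its WT arrays and its KO replicates 1 and 3 lie within the range of the background probe sets (2.43 to 8.59 by GC content). So do all arrays of the 5 Hox genes that fell and most arrays of the PRC1 members. Detection was not called, so the true change of Cdkn2a may be larger and no fold is given. Bmi1 and Cbx7, known as repressors of this locus, also rose in KO. The neighbouring Cdkn2b changed by 0.55 (SE 0.29; limma, adjusted p = 0.202). Of the 6 cyclin-dependent kinase inhibitor genes 1 rose and 1 fell, Cdkn1c (-0.36, limma, adjusted p = 0.0490). Without WT replicate 4, 3 of the 6 rose. Cdkn1c lost its call with any of KO replicates 1, 3, 4 and 5 or WT replicates 2, 4 and 5 left out (adjusted p 0.0675 to 0.118); none fell with KO replicate 1, 4 or 5 or WT replicate 2 or 5 left out, and 2 fell with KO replicate 2 left out.

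Proliferation genes were lower in value in KO throughout but spread widely. All 19 measured had a negative change, with a median of -0.91, and 1 passed, Pcna, the sliding clamp of DNA replication (-0.78, limma, adjusted p = 0.0453). Over all tested probe sets 11.7% were lower. At an unadjusted p under 0.05, 8 of the 19 were lower. Mki67 stood at 8.75, 10.06, 10.83, 8.10 and 6.88 on KO arrays 1 to 5 and at 10.41, 10.49, 10.93, 9.52 and 10.46 on WT arrays 1 to 5. KO replicates 2 and 3 lay within the WT range and KO replicates 1, 4 and 5 below it (change -1.44; limma, adjusted p = 0.116). Without KO replicate 3, 8 of the 19 fell, without KO replicate 2 or WT replicate 4, 2 fell, and without any other array none did. The part of proliferation in the PRC1 changes was not tested.

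**Figure D5:**
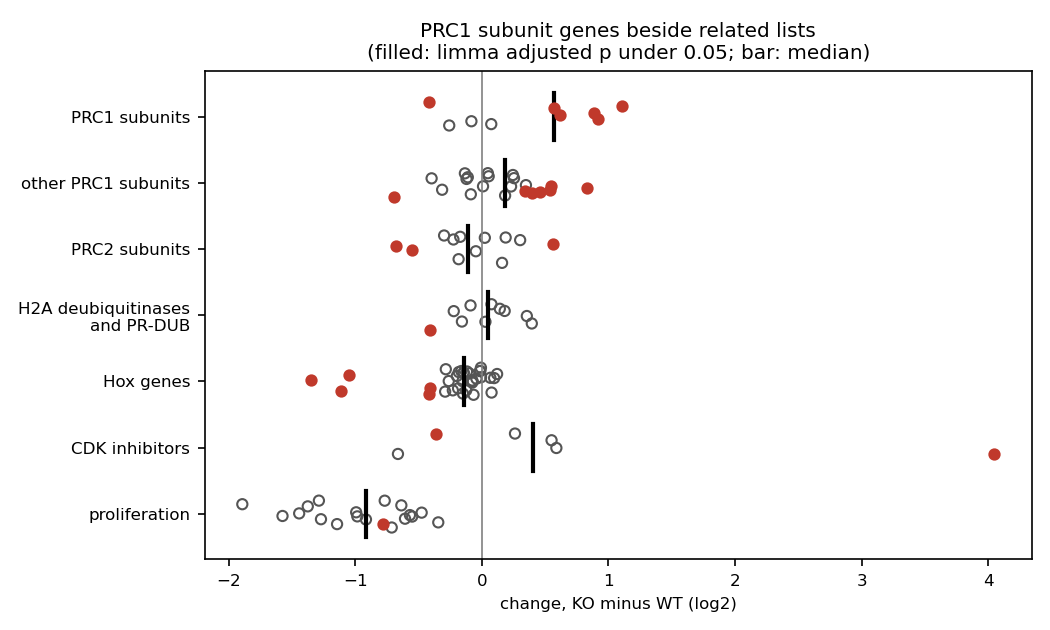
Change of each gene, KO minus WT on the log2 scale (horizontal axis), for the 9 PRC1 subunit genes and 6 related lists; each point is a gene, filled points passed (limma, adjusted p under 0.05), open points did not, and bars are list medians. The PRC1 subunit median lies at 0.57, that of the other PRC1 genes at 0.18, that of proliferation genes at -0.91, and Cdkn2a stands alone at 4.05.

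The genes whose levels followed the PHC genes most closely over the 10 arrays were of varied kinds. For Phc1 they were Tk2 (Pearson's r 0.987), Rab2b (0.984) and Cklf (0.984), for Phc2 Lgals3 (0.992), Dcxr (0.987) and Akr1b8 (0.980), and for Phc3 Zdhhc1 (0.985), Zfp516 (0.982) and Cadm4 (0.982). These are the highest of 17060 candidates for each gene, and over 10 arrays in 2 separate groups r includes the difference between the groups. Tk2 encodes a mitochondrial thymidine kinase and Lgals3 a galectin.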

How the data were processed

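Total RNA (100 ng a sample) was labelled with the GeneChip WT PLUS kit and measured on 10 arrays, per the labels' protocols. The authors deposited log2 levels per probe set made with RMA, and limma is also named, per the submitters' processing notes; the sources used here give no versions, no genome build and no word on whether arrays were normalized together. RMA levels of different probe sets depend on their probes, so no gene's level was ranked against another's; for pairs of paralogues, the within-array difference was compared between KO and WT. Detection was not called: the 23 background probe sets averaged 2.43 to 8.59 by their GC content, and the 9 genes lay between 6.17 and 9.03. All arrays of Phc3, Cbx2, Cbx7, Cbx8 and Ring1 lay within the background range. So did the WT arrays of Phc1, Phc2 and Bmi1, the KO arrays of Pcgf5, and some of the other arrays of Phc1, Bmi1 and Pcgf5. The true changes of these genes may therefore differ from the folds given. Median levels per array were 6.50 to 6.56 in KO and 6.42 to 6.47 in WT, so every KO median lay above every WT median. The number of arrays limits the precision.

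The deposited values were fitted with limma 3.58.1 (R 4.3.3) on all 28846 probe sets, 6640 of them controls, with Benjamini-Hochberg adjustment over the 19572 paired with 1 symbol and a threshold of 0.05. A further 2634 are unnamed here. The probe set with the highest mean stood for a gene. Paralogue pairs were tested by exact permutation over arrays (Python 3.11.15, pandas 2.3.3, numpy 2.4.6, scipy 1.17.1; figures matplotlib 3.10.9). The members, lists and motifs were chosen with earlier results of these data known. Named genes are all members, Nfkbia, Rnf2, up to 6 that passed in each related list, and for the 3 members with the smallest p the 3 genes most like each; Usp7, Kdm2b, Bcorl1, Rybp, Pcgf2, Pcgf6, Ezh1, Ezh2, Eed, Cdkn2b, Mki67 and the marker genes were picked with values in view. The alternatives varied normalization, filter, variance model, weights, block, adjustment, probe set rule, least change and arrays used. The fit was tested on simulated data.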

Additional observations from a re-analysis of the deposited data

Results flagged for a closer look

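2 of 58 groups of 5 arrays, over 29 genes named here, held a value far from the other 4, where chance flags about 1 group in 20. Nfkbia stood at 9.85 on WT replicate 5, against 8.95 to 9.19 on the other WT arrays. Rnf2 stood at 8.72 on WT replicate 3, against 8.37 to 8.41 on the other WT arrays.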

How the results depend on the processing

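Phc1, Phc2 and Cbx7 kept their direction and passed under each of the 21 alternatives run. Bmi1 and Phc3 did so under all but the test against a 1.2-fold change, and Nfkbia passed in each. Centring on the 75th percentile or cyclic loess moved the median of all genes by under 0.1. Against a 1.2-fold change (limma's treat), 3 members rose and 0 fell (15.5% of all probe sets passed, 1772 higher and 1262 lower), with 1 and 0 of the other PRC1 genes, 0 and 1 of PRC2, 0 deubiquitinase genes, 3 Hox genes, 0 kinase inhibitor genes and 0 proliferation genes lower. With the replicate number as a block 0 members fell (Pcgf5, adjusted p = 0.0684), 2 other PRC1 genes rose and 2 fell, 2 proliferation genes fell, and 0 pairs of paralogues passed, as 5 sign flips cannot give a p under 0.0625. Same-numbered arrays had deviations correlated at -0.08 to 0.35, above 0.1 in 2 of 5 pairs, and 2 of 5 KO arrays correlated best with their own number, so the numbers were not taken as pairs. 2 other PRC1 genes fell with cyclic loess, 75th percentile centring, the dimmest 20% or the controls left out, a trended robust variance, array weights, probe sets averaged, or KO replicate 2 and WT replicate 4 left out. That last choice also gave 0 deubiquitinase genes lower, 2 kinase inhibitor genes higher, 8 proliferation genes lower and 0 pairs. Array weights gave 2 PRC2, 1 deubiquitinase and 2 kinase inhibitor genes higher and 9 proliferation genes lower. Deubiquitinase genes lower were 0 with 75th percentile centring or adjustment over all probe sets, and the latter also gave 0 proliferation genes lower. Kinase inhibitor genes lower were 2 with cyclic loess, array weights, probe sets averaged, and the dimmest 20% or the controls left out, and 0 with the trended variance or adjustment over all probe sets. Leaving out 1 array at a time, members lower ranged from 0 to 1, other PRC1 genes higher from 3 to 7 and lower from 0 to 3, PRC2 genes higher from 0 to 2, deubiquitinase genes higher and lower from 0 to 1 each, Hox genes lower from 3 to 5, kinase inhibitor genes higher from 1 to 3 and lower from 0 to 2, and proliferation genes lower from 0 to 8. Cbx2 ranged from -0.17 to 0.0025, the latter without WT replicate 3. The cause of these differences was not tested.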
